A study of Mus musculus with 16 samples.

Results

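*Ccr7* and *S1pr1*, which encode receptors that guide immune cells into and out of lymphoid organs, are 2 of the 734 genes analysed here, and they were chosen by name with earlier results of these data known. Expression was measured with the NanoString nCounter Myeloid Innate Immunity panel, in which colour-coded probes count mRNA molecules, in CD11b+ cells from the spleens of 16 wild-type C57BL/6 (B6) mice. The study concerned what erythropoietin (EPO) does to myeloid cells during a response to cells of another strain under costimulation blockade. Values are normalized log2 expression as deposited by the authors, and the counts behind them, recovered from these values, summed to between 562760 and 912328 molecules per mouse.

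The mice formed 4 groups of 4, numbered 1 to 4 by their labels. Naive mice were untreated. Mice of the BALB/c cells group were given 20000000 spleen cells of BALB/c mice, which the labels describe as T cell depleted. The CTLA4-Ig group was given these cells and CTLA4-Ig (abatacept, 150 μg i.p. on day 2), which keeps CD28 on T cells from binding its ligands. The CTLA4-Ig/EPO group was given the same cells and CTLA4-Ig with recombinant EPO (epoetin alfa, 5000 U/kg i.p. daily). Spleens were taken on day 7. The age of the mice is not given in the labels, and no group analysed here was given EPO without CTLA4-Ig or without BALB/c cells, so the effect of EPO is read only on top of both. The BALB/c cells were injected i.p. according to the labels and i.v. according to the results of the study, and the profiled cells are CD11b+ by positive magnetic selection in the labels and CD11b+CD11c- in those results. A protocol label swaps the letter codes of naive mice and of mice given BALB/c cells alone, and the mice were grouped here by their titles and treatment fields. Each comparison with naive mice or with BALB/c cells alone rests on this grouping. For some of the genes it depicted, the study reports a change after allogeneic cells against naive controls and no effect of added CTLA4-Ig. Grouped by title, *Ccr7* and *S1pr1* ran that way here. The study also names *Ccr7* among the genes that EPO lowered, which it associates with proinflammatory macrophages. The fall of *Ccr7* with EPO given below comes from the same mice, so it is no separate evidence.

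CCR7 is a receptor of the chemokines CCL19 and CCL21. It brings naive T cells, B cells and mature dendritic cells to the T cell zones of lymph nodes and spleen. S1PR1 is a receptor of sphingosine 1-phosphate, a lipid that is more concentrated in blood and lymph than in tissue, and it draws lymphocytes out of lymphoid organs, while CD69 holds them back by removing S1PR1 from the cell surface.

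The CD11b+ label was checked against its defining gene. *Itgam*, which encodes CD11b, was at 11.42 ± 0.15 in naive mice, 8.85 ± 0.28 after BALB/c cells, 9.22 ± 0.12 under CTLA4-Ig and 9.56 ± 0.29 when EPO was added (log2, SD, n = 4 each), with a lowest recovered count of 476. The gene was thus counted well above the lowest recovered count of 1 in every mouse, but at a lower level in the groups given BALB/c cells than in naive mice. T cell and B cell genes were counted in every mouse too, and their values stand beside the results for *Ccr7* and *S1pr1* further on. In bulk samples such as these, fewer cells of a type and less RNA per cell cannot be told apart.

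*Ccr7* was at 9.56, 10.25, 10.36 and 9.88 in naive mice 1 to 4, a mean of 10.01 ± 0.37 (normalized log2 expression, SD, n = 4). In mice given BALB/c cells alone it was at 11.80, 11.80, 11.70 and 11.77, with the smallest spread of the groups (11.76 ± 0.05). CTLA4-Ig left it at 11.68, 11.50, 11.85 and 11.68 (11.68 ± 0.14), and the mice with CTLA4-Ig/EPO had 10.37, 10.29, 9.97 and 10.00 (10.16 ± 0.20). The 8 values of the BALB/c cells and CTLA4-Ig groups all lay above the 8 of the naive and CTLA4-Ig/EPO groups. From high to low the order of means was BALB/c cells, CTLA4-Ig, CTLA4-Ig/EPO and naive. BALB/c cells and CTLA4-Ig did not differ beyond their spread, and CTLA4-Ig/EPO and naive did not either. The counts recovered for *Ccr7* ran from 407 in a naive mouse to 6270 with CTLA4-Ig, and the median counting error expected from them was 0.05 log2 in naive mice, 0.02 after BALB/c cells alone, 0.02 under CTLA4-Ig and 0.03 when EPO was added, each below the SD between mice.

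*S1pr1* was at 5.98, 6.22, 6.49 and 6.66 in naive mice 1 to 4 (6.34 ± 0.30). The mice given BALB/c cells alone had 7.87, 7.91, 8.37 and 8.28 (8.10 ± 0.25), and those with CTLA4-Ig had 8.12, 7.90, 8.53 and 8.63 (8.30 ± 0.34). With CTLA4-Ig/EPO the values were 5.94, 6.48, 6.39 and 6.64 (6.36 ± 0.30). The lowest value of the BALB/c cells and CTLA4-Ig groups was 7.87 and the highest of the naive and CTLA4-Ig/EPO groups was 6.66, so *S1pr1*, like *Ccr7*, split the mice into the same sets of 8 with no overlap. The share of all genes that split the mice so is not given here, and the split is not particular to this pair. Of the 734 genes, 61 (8.31%) were called higher after BALB/c cells and lower with EPO. The means fell in the order CTLA4-Ig, BALB/c cells, CTLA4-Ig/EPO and naive. As with *Ccr7*, neighbours in this order on the same side of the split overlapped. *S1pr1* was counted less deeply, between 34 and 74 molecules per naive mouse, between 85 and 156 with CTLA4-Ig/EPO and between 302 and 626 in the other groups. Its expected counting error was 0.19 log2 in naive mice and 0.13 with CTLA4-Ig/EPO, beside SDs between mice of 0.30 in both groups. Differences between groups accounted for 94.8% of the variance of *Ccr7* over the 16 mice and for 92.7% of that of *S1pr1*, where the median of all genes was 80.6%.

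**Figure D1:**
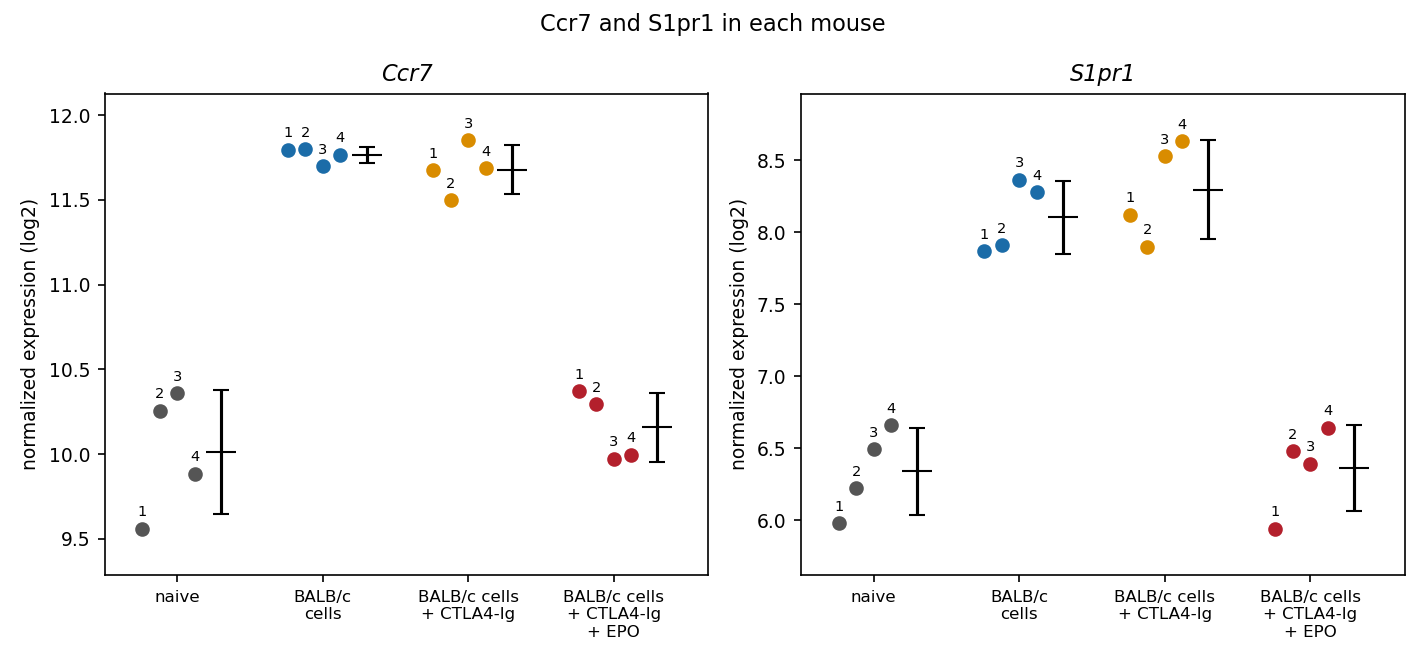
Normalized log2 expression of *Ccr7* (left) and *S1pr1* (right) in each mouse, numbered as in the labels, with the mean and SD of each group of 4 mice beside its points. In both genes the mice given BALB/c cells alone or with CTLA4-Ig lie above the naive mice and the mice with CTLA4-Ig/EPO, at means of 11.76 and 11.68 against 10.01 and 10.16 for *Ccr7*, and of 8.10 and 8.30 against 6.34 and 6.36 for *S1pr1*.

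The comparison of BALB/c cells alone with naive mice asks what the allogeneic cells change. *Ccr7* was higher by 1.75 log2 (standard error 0.16, 95% interval 1.41 to 2.09, limma adjusted *P* value 1.50e-07, two-sided as all tests here), a 3.36-fold difference, in 4 of 4 mice. *S1pr1* was higher by 1.77 log2 (standard error 0.20, 95% interval 1.33 to 2.20, adjusted *P* value 2.52e-06), or 3.40-fold, also in 4 of 4 mice. Both genes were therefore called higher, against 11.9% of the 734 genes (87 genes), while 58.4% (429 genes) were called lower. Their values did not overlap between the groups in that direction, which held for 10.1% of genes (74 genes). By size of the rise, *S1pr1* stood at place 5 and *Ccr7* at place 6 of 734. The median difference of all genes was -0.65 log2, and relative to it *Ccr7* rose by 2.40 and *S1pr1* by 2.41.

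The size of this rise moved with the scaling of the mice. The factor that the deposited values apply to the counts lay between 1.27 and 1.85 in naive mice and between 0.560 and 0.791 in the other mice. The rise of *Ccr7* was 2.48 with each mouse centred on its median, 2.60 with quantile normalization and 2.83 as CPM, the counts divided by the total of the mouse and scaled to a common sum, and that of *S1pr1* was 2.50, 2.39 and 2.85. The genes called higher and lower in the whole table were then 242 and 196, 251 and 192, and 334 and 132, in the same order. Both genes were called higher in each of these scalings too. In CPM, *Ccr7* was at 987 ± 386 in naive mice and 6562 ± 225 after BALB/c cells alone, and *S1pr1* at 76.2 ± 26.7 and 525 ± 92.4. Genes of the neutrophil list (8 genes, *S100a9* the most abundant, none at the lowest count) held between 27.7% and 49.6% of all counts in naive mice and between 2.33% and 6.72% after BALB/c cells alone. The part of these genes in the scaling was not tested.

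Adding CTLA4-Ig to BALB/c cells was the step at which neither gene was called. The difference was -0.09 log2 for *Ccr7* (95% interval -0.42 to 0.25, adjusted *P* value 0.926), with 3 of the 4 CTLA4-Ig mice below the narrow range of the BALB/c cells group and 1 above it. For *S1pr1* it was 0.19 (95% interval -0.25 to 0.63, adjusted *P* value 0.893), and the values of the groups interleaved. The same held for the table as a whole, in which limma called 0 genes (0%) at the adjusted threshold and 70 at an unadjusted *P* value under 0.05. A *P* value above the threshold does not show that the groups were alike, and the intervals allow changes of up to 0.42 log2 downward in *Ccr7* and 0.63 upward in *S1pr1*.

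The comparison of CTLA4-Ig/EPO with CTLA4-Ig asks what EPO adds. The 4 values of *Ccr7* with EPO, at most 10.37, lay below the 4 without it, at least 11.50, and the difference was -1.52 log2 (95% interval -1.86 to -1.18, adjusted *P* value 1.48e-06). *S1pr1* was at most 6.64 with EPO and at least 7.90 without it, a difference of -1.93 log2 (standard error 0.20, 95% interval -2.37 to -1.49, adjusted *P* value 1.93e-06). On the linear scale, *Ccr7* kept 0.349 and *S1pr1* 0.262 of its level. Both genes were called lower, against 28.3% of genes (208), with 22.8% (167) called higher, and both were free of overlap in that direction, against 27.5% of genes (202). Falling with EPO was thus common on this panel, but the size of the fall was not, since *S1pr1* stood at place 5 and *Ccr7* at place 17 of 734 from the largest fall. The median of all genes was -0.07 log2. The fall was -1.72, -1.55 and -1.42 for *Ccr7* and -2.13, -2.10 and -1.83 for *S1pr1* with median centring, quantile normalization and CPM, while the whole table gave 126 genes higher and 276 lower, 155 and 223, and 184 and 146.

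Against BALB/c cells alone, the mice with both CTLA4-Ig and EPO had *Ccr7* lower by a log2 difference of -1.61 (adjusted *P* value 8.21e-07) and *S1pr1* by one of -1.74 (adjusted *P* value 5.24e-06), where 27.7% of genes (203) were called lower. The 4 mice of each group again did not overlap in either gene, which held in that direction for 26.0% of genes (191). The other scalings moved the genes called higher and lower in the table from 168 and 203 to 130 and 280, 158 and 233, and 183 and 143, and relative to the median of all genes the deposited differences were -1.54 and -1.67. This comparison shares its mice with those above, so it is no separate piece of evidence.

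The comparison of CTLA4-Ig/EPO with naive mice asks how near to the untreated level the genes came. *Ccr7* differed by 0.14 log2 (95% interval -0.19 to 0.48, adjusted *P* value 0.427) and *S1pr1* by 0.02 (95% interval -0.41 to 0.46, adjusted *P* value 0.915), with overlapping values in both. Neither was called, where 70.8% of genes (520) were, 67 higher and 453 lower, around a median of -0.74 log2. Relative to that median *Ccr7* was higher by 0.88 and *S1pr1* by 0.76.

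This likeness to naive mice depended on the scaling and cannot be given without it. *Ccr7* was higher with CTLA4-Ig/EPO than in naive mice by 0.66 with median centring (adjusted *P* value 0.00409), by 0.97 with quantile normalization (0.000116) and by 1.34 in CPM (0.000173), and was called in each. *S1pr1* was higher by 0.54 with median centring (0.0582) and by 0.45 with quantile normalization (0.0938), both without a call, and by 1.22 in CPM (0.000918), where it was called. Over all genes, the numbers called higher and lower turned from 67 and 453 to 168 and 249, 223 and 191, and 340 and 90. In CPM the means with CTLA4-Ig/EPO were 2341 ± 313 for *Ccr7* and 170 ± 32.1 for *S1pr1*, both above the naive means of 987 and 76.2 and below the CTLA4-Ig means of 6250 and 612. The rise after BALB/c cells and the fall with EPO thus held in each scaling, and the return of *Ccr7* to the naive level held only in the deposited one. Leaving out naive mouse 1 turned the deposited difference of *Ccr7* to -0.01, and leaving out 1 of 4 mice (naive 1 or 2, CTLA4-Ig/EPO 2 or 4) turned that of *S1pr1* to between -0.10 and -0.01, all uncalled.

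**Figure D2:**
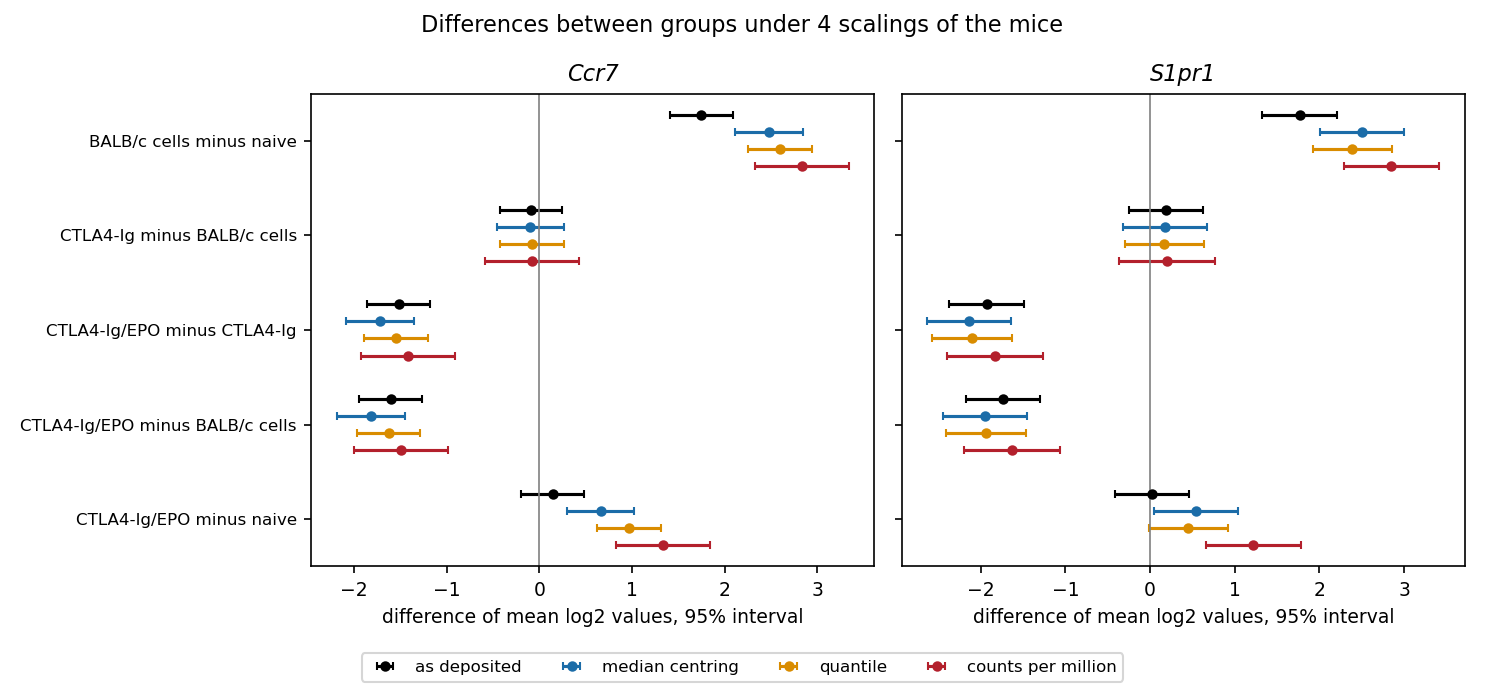
Differences of mean log2 values between groups for *Ccr7* (left) and *S1pr1* (right), with 95% intervals, as deposited and in 3 other scalings of the mice (colours). The rise after BALB/c cells and the fall with EPO keep their side of 0 in each scaling, whereas CTLA4-Ig/EPO minus naive moves from 0.14 to 1.34 for *Ccr7* and from 0.02 to 1.22 for *S1pr1*.

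The rise after BALB/c cells and the fall with EPO were compared side by side, since these 2 comparisons have no mouse in common. In all, 61 genes were called higher in the former and lower in the latter, 8.31% of the table, *Ccr7* and *S1pr1* among them. *Ccr7* rose by 1.75 and then differed by -1.52, and *S1pr1* rose by 1.77 and then differed by -1.93.

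**Figure D3:**
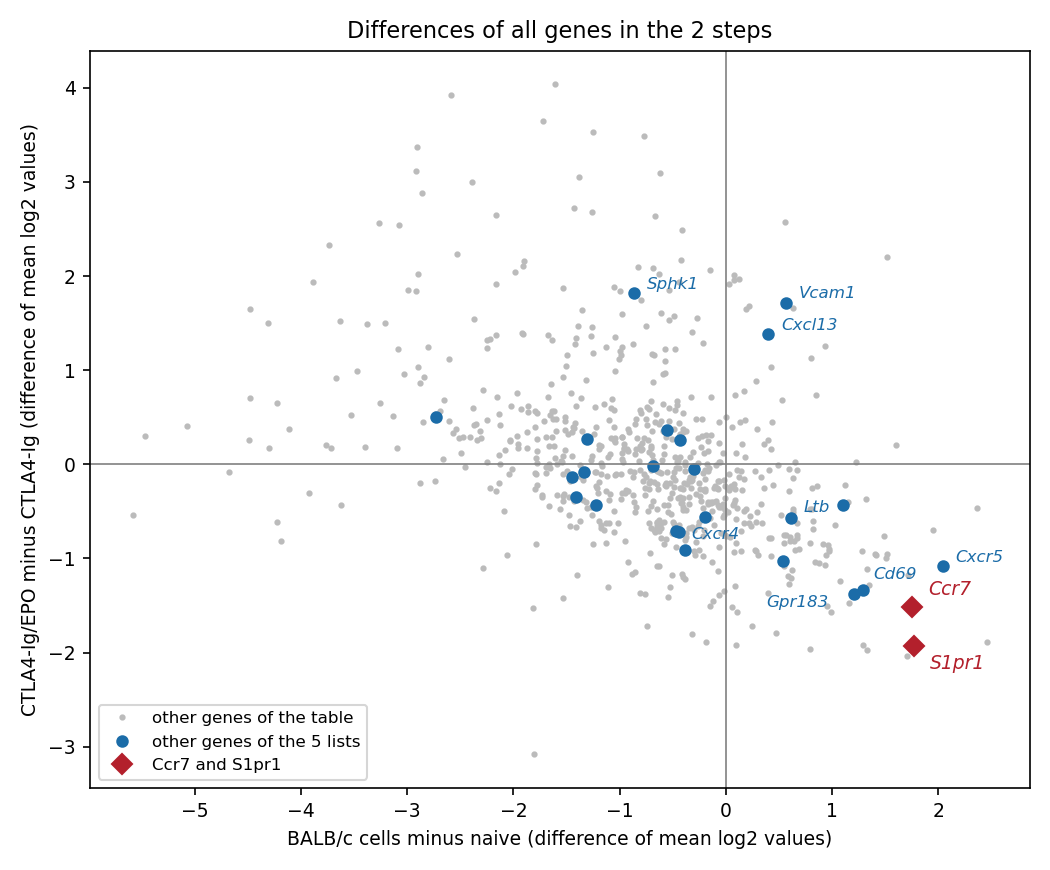
Difference of mean log2 values between BALB/c cells and naive mice (horizontal) against that between CTLA4-Ig/EPO and CTLA4-Ig (vertical) for each of 734 genes, with *Ccr7* and *S1pr1* as red diamonds and 23 other genes of homing and egress in blue. *Ccr7* (1.75, -1.52) and *S1pr1* (1.77, -1.93) lie at the lower right edge, near *Cxcr5* (2.05, -1.08), *Gpr183* (1.21, -1.38) and *Cd69* (1.29, -1.33).

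Whether the genes changed by equal amounts was read from *Ccr7* minus *S1pr1* in each mouse, a quantity in which the factor of the mouse drops out. Only its change between groups has a meaning, because probes of different genes need not count equally well. It was 3.58, 4.03, 3.87 and 3.22 log2 in naive mice 1 to 4 and 3.93, 3.89, 3.33 and 3.49 after BALB/c cells alone, ranges that overlapped widely. The means differed by -0.02 (exact permutation *P* value 0.971), and the sign of this small difference changed with quantile normalization (0.21, exact *P* value 0.429) and when 1 of 4 mice was left out (naive 2 or 3, BALB/c cells 3 or 4, with values from 0.04 to 0.10). With CTLA4-Ig it was 3.55, 3.60, 3.32 and 3.05, and with CTLA4-Ig/EPO 4.43, 3.81, 3.58 and 3.35, so that 2 of the 4 mice with EPO lay above every mouse without it. The difference of 0.41 log2 was in the direction of a larger fall of *S1pr1* than of *Ccr7* (exact permutation *P* value 0.143, 0.286 adjusted over the 2 comparisons made), where the smallest value that 4 mice against 4 allow is 0.0286. It was 0.56 with quantile normalization (exact *P* value 0.0571), 0.20 without CTLA4-Ig/EPO mouse 1 and 0.56 without CTLA4-Ig/EPO mouse 4. With mice paired by number, *Ccr7* minus *S1pr1* was higher with EPO in 4 of 4 pairs (0.88, 0.21, 0.25 and 0.30). The exact paired *P* value was 0.125, the smallest that 4 pairs allow, so this test could not reach 0.05. A difference between the falls of the genes was therefore not shown, and neither was their equality.

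Between mice of a group, a relation of the genes was not shown. Over 16 mice, the deviations of *Ccr7* and *S1pr1* from their group means correlated with Pearson's r of 0.130 (exact permutation *P* value 0.681 over 331776 arrangements of the mice within groups) and Spearman's rho of -0.0294 (exact *P* value 0.926). This was the only relation tested in this way. The genes deviated to the same side in 8 of 16 mice, 2 of 4 naive mice, 1 of 4 after BALB/c cells alone, 4 of 4 under CTLA4-Ig and 1 of 4 when EPO was added. Naive mice 1 and 3 lay farthest out in *Ccr7*, with deviations of -0.46 and 0.35, and without them r was -0.253 (exact *P* value 0.458). Without naive mouse 1 alone r was -0.211, without naive mouse 3 alone it was 0.05, without CTLA4-Ig mouse 2 it was 0.0144, and without all naive mice it was -0.107. The sign of r thus rested on naive mouse 1.

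Because both genes share the factor of each mouse, r was also computed in other scalings, where it was 0.331 (exact *P* value 0.324) with median centring, 0.332 (0.368) with quantile normalization and 0.566 (0.189) in CPM. Against the correlations of *Ccr7* with the 733 other genes, that with *S1pr1* stood at place 267, where the median was -0.00468. Seen from *S1pr1*, *Ccr7* stood at place 191 of 733, around a median of -0.186. These places hold for the deposited scaling only.

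The genes also differed in how their deviations lined up with the numbers of the mice. *S1pr1* was above the group mean in mice 3 and 4 in 4 of 4 groups, in mouse 2 in 1 group and in mouse 1 in 0, with mean deviations of -0.30, -0.15, 0.17 and 0.28 log2 for mice 1 to 4. For *Ccr7* the mean deviations were -0.05, 0.06, 0.07 and -0.07, with 2 or 3 of 4 mice of each number above the mean. The number of the mouse accounted for 79.6% of the variance of *S1pr1* within groups, the place 21 of 734, and for 10.5% of that of *Ccr7*, the place 655, around a median of 31.6% for all genes. This was looked at after the values had been seen, and the labels do not say what mice of a number share. A handling order or cage was not tested.

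**Figure D4:**
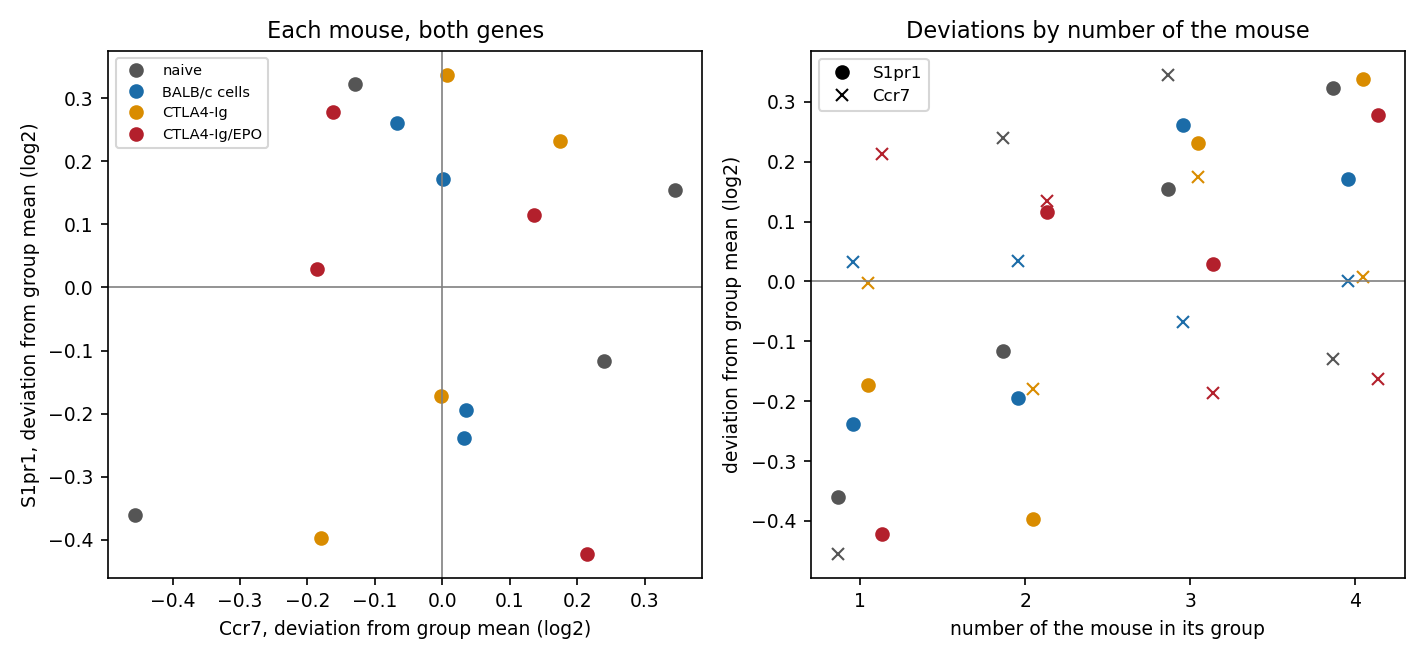
Left, the deviation of *S1pr1* from its group mean against that of *Ccr7* in each of 16 mice (log2, colours for groups), with r = 0.130. Right, the same deviations by the number of the mouse, where *S1pr1* (circles) is below 0 in the 4 mice numbered 1 and above 0 in the 8 numbered 3 and 4, and *Ccr7* (crosses) is spread on both sides of 0.

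Other genes of homing and egress were followed through 5 lists with 42 genes, of which 23 besides *Ccr7* and *S1pr1* are in the table. After BALB/c cells alone, 6 of the 23 were called higher and 11 lower, where 11.9% of all genes were higher and 58.4% lower, with a median of -0.44 log2 beside -0.65 for all genes. This division turned with the scaling, to 8 and 5, 11 and 5, and 13 and 2, as that of the table did, to 242 and 196, 251 and 192, and 334 and 132. CTLA4-Ig changed 0 of the 23 in limma. With EPO, 4 were higher and 9 lower (median -0.34 beside -0.07), and in the other scalings 3 and 11, 2 and 9, and 5 and 8. Against naive mice, CTLA4-Ig/EPO left 4 higher and 12 lower, where the table had 67 and 453, and the other scalings gave 7 and 7, 9 and 4, and 11 and 1. Being lower with EPO held for 9 of these 23 genes as deposited, where 208 of the 734 genes (28.3%) were lower, and whether the lists differ from the table was not tested.

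The ligands of CCR7 were counted at low depth. *Ccl19* was at 3.40 ± 1.18 in naive mice, 3.10 ± 0.39 after BALB/c cells, 2.00 ± 0.31 under CTLA4-Ig and 1.95 ± 0.54 when EPO was added, on recovered counts as low as 2. *Ccl21a*, another ligand, was at 3.06 ± 1.16, 3.60 ± 0.31, 3.77 ± 0.56 and 2.74 ± 1.08, also from a count of 2 upward. Neither was called with EPO (differences -0.05 and -1.03, adjusted *P* values 0.933 and 0.143). The 95% intervals were -1.03 to 0.93 for *Ccl19* and -2.23 to 0.17 for *Ccl21a*. Counts of *Ccl19* were as low as 4 under CTLA4-Ig, near the lowest recovered count of 1. A fall as large as that of *Ccr7* could hardly be seen from there, so its interval cannot exclude one. Of the 4 ligands in the table, 0 were called after BALB/c cells alone as deposited, and 1 or 2 higher in the other scalings (*Cxcl13*, and *Ccl21a* in 2 of them). Of all 734 genes, 11.9% were higher and 58.4% lower as deposited, and 242, 251 and 334 were higher in the other scalings. With EPO, *Cxcl13*, which draws B cells into follicles, was called higher (1.39, adjusted *P* value 0.0220) and *Cxcl12* lower (-0.92, adjusted *P* value 0.0101), the former not with quantile normalization (0.0615). The whole table had 22.8% of genes higher and 28.3% lower with EPO.

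Among receptors and adhesion molecules of homing, those closest to *Ccr7* in course were *Cxcr5*, the receptor that leads B cells to follicles, and *Gpr183*, an oxysterol receptor that positions B cells and dendritic cells in the spleen. *Cxcr5* rose by 2.05 after BALB/c cells and differed by -1.08 with EPO, and *Gpr183* by 1.21 and -1.38, each called in both. *Cxcr4*, the receptor of CXCL12, differed by -0.44 after BALB/c cells as deposited but by 0.29, 0.44 and 0.64 in the other scalings, and by -0.72 with EPO. Over the 4 homing receptors in the table besides *Ccr7*, 2 were called higher and 2 lower after BALB/c cells (median 0.38, or 3 and 0 in CPM), and 4 were called lower with EPO (median -0.90, or 3 in CPM). For these receptors and the adhesion genes alike, the shares of the whole table were 11.9% higher and 58.4% lower after BALB/c cells, and 22.8% higher and 28.3% lower with EPO. In the adhesion list, 1 of 11 genes was higher and 9 lower after BALB/c cells as deposited, against 5 and 2 in CPM, and 2 were higher (*Vcam1* and *Itgb1*) and 2 lower (*Itga4* and *Itgb7*) with EPO, where *Itgb1* lost its call with median centring (adjusted *P* value 0.247) and with quantile normalization (0.151).

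Of the genes that act with *S1pr1* in egress, 2 are in the table. *Cd69* rose by 1.29 after BALB/c cells (adjusted *P* value 1.53e-07) and differed by -1.33 with EPO (2.55e-07). These directions are those of *S1pr1* (1.77 and -1.93), whose protein CD69 removes from the surface. Whether the sizes differ was not tested. Receptor protein was not measured, so the amount left on the cells is not known here. *Sphk1*, a kinase that makes sphingosine 1-phosphate, differed by 1.82 with EPO (adjusted *P* value 0.00246), in the opposite direction to *S1pr1*, and was not called after BALB/c cells (-0.86, adjusted *P* value 0.0857, positive with quantile normalization and in CPM). Its recovered counts began at 2, so its values are among the least precise here. The lymphotoxin genes *Lta* and *Ltb*, which lymphoid organs need for their structure, were both called higher after BALB/c cells (median 0.86), and *Ltb* alone was called lower with EPO (-0.57, adjusted *P* value 0.000185). Over the 17 other chemokine receptors in the table, 4 were higher and 8 lower after BALB/c cells, where the table had 11.9% and 58.4% (median -0.39, or 10 higher and 6 lower in CPM), and 4 were higher and 7 lower with EPO, where the table had 22.8% and 28.3% (median -0.40, or 5 and 5). *Ccr6* was the receptor whose values came nearest to those of *Ccr7*, with 1.71 and -1.18.

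Marker genes of T and B cells moved with both genes. All 7 T cell genes in the table of 26 listed (*Cd247*, *Cd27*, *Cd28*, *Ctla4*, *Icos*, *Cd40lg* and *Lat*) were called higher after BALB/c cells (median 1.35 log2) and lower with EPO (median -1.28), in each scaling, and 0 changed with CTLA4-Ig in limma. Of all genes, 11.9% were higher after BALB/c cells (334 genes in CPM), 28.3% lower with EPO and 8.31% both. Their summed normalized counts were 614, 722, 844 and 689 in naive mice 1 to 4, and 1641, 1909, 1511 and 1528 after BALB/c cells alone. With CTLA4-Ig they were 1523, 1608, 1494 and 1606, and with CTLA4-Ig/EPO 701, 567, 466 and 514. *Cd28* had the highest mean of them after BALB/c cells alone and with CTLA4-Ig. *Cd247* was above *Cd28* in naive mice (7.69 against 7.54) and with CTLA4-Ig/EPO (7.33 against 6.82), though probes of different genes need not count equally well. None of the T cell genes was at the lowest count in any mouse. The sums thus split the mice as *Ccr7* and *S1pr1* did.

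The 3 B cell genes in the table of 17 listed (*Ms4a1*, *Fcer2a* and *Cxcr5*, the last also in the homing list) were likewise called higher after BALB/c cells (median 1.48) and lower with EPO (median -0.97) in each scaling, beside the same 11.9%, 28.3% and 8.31% of all genes. They summed to 1007, 1101, 1179 and 1051 in naive mice, 3464, 3077, 3341 and 2961 after BALB/c cells alone, 2940.5, 3125, 3319.7 and 2836 with CTLA4-Ig, and 2071, 1980.2, 1430.1 and 1537 with CTLA4-Ig/EPO. *Ms4a1* was the most abundant, and none was at the lowest count. All 3 were called higher with CTLA4-Ig/EPO than in naive mice in each scaling, which *Ccr7* was in the 3 other scalings but not as deposited, and *S1pr1* only in CPM. Of the 7 T cell genes, 1 was higher and 3 lower in this comparison as deposited, where the table had 67 and 453. With median centring, quantile normalization and CPM they were 4 and 1, 3 and 1, and 5 and 0. The table then had 168 and 249, 223 and 191, and 340 and 90. The part of T and B cells in the values of *Ccr7* and *S1pr1* was not tested.

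**Figure D5:**
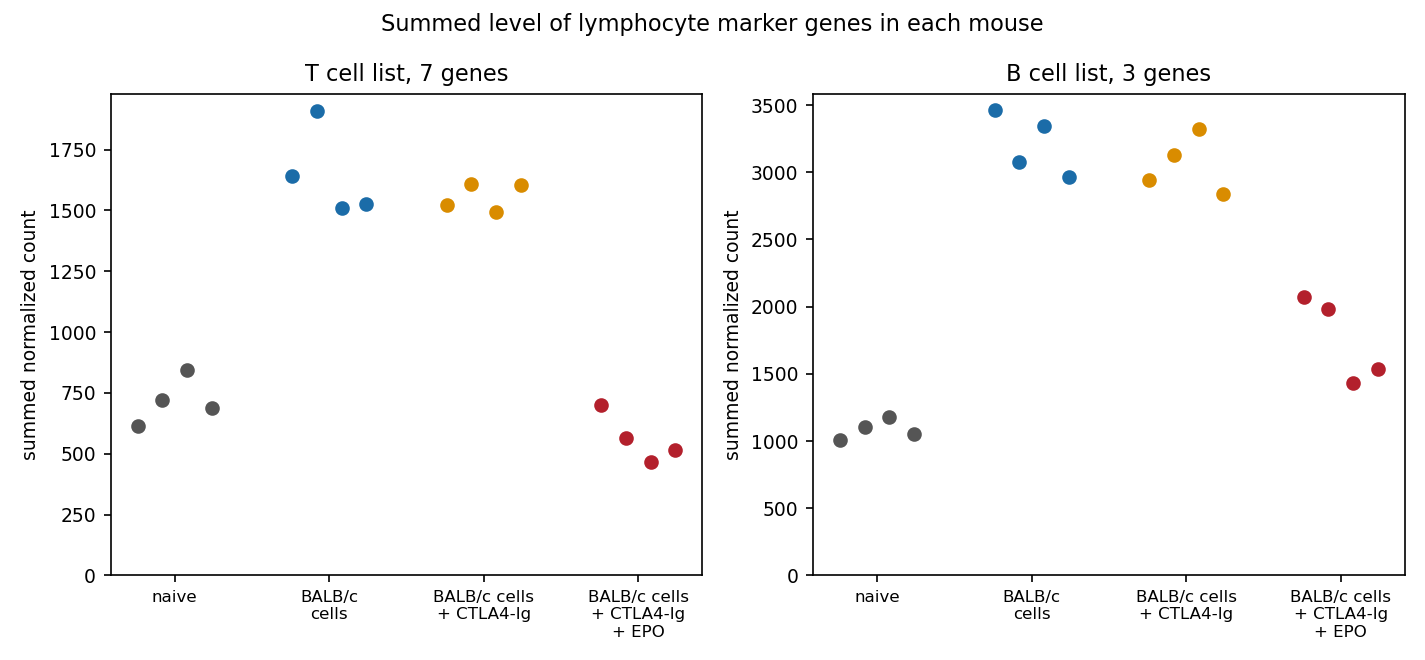
Summed normalized counts of the 7 T cell genes (left) and the 3 B cell genes (right) in each mouse. The T cell sums lie between 1494 and 1909 in the BALB/c cells and CTLA4-Ig groups and between 466 and 844 in the others, and the B cell sums with CTLA4-Ig/EPO (1430.1 to 2071) lie between those of naive mice (1007 to 1179) and of the remaining groups (2836 to 3464).

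To put the genes beside these markers, the mean log2 value of a list was subtracted from *Ccr7* and from *S1pr1* in each mouse, a description chosen after the values had been seen and given without a test. Against the T cell list, *Ccr7* stood at 3.78 ± 0.26 in naive mice, 4.17 ± 0.13 after BALB/c cells, 4.12 ± 0.17 under CTLA4-Ig and 4.07 ± 0.12 when EPO was added. Its rise and fall of more than 1.5 log2 thus shrank to differences between means of less than 0.4. This follows from the list, whose 7 genes were all called higher and then lower (medians 1.35 and -1.28). Subtracting any genes that moved alike would shrink it too, so it does not show which cells held *Ccr7*. *S1pr1* stood at 0.10 ± 0.32, 0.51 ± 0.40, 0.74 ± 0.33 and 0.28 ± 0.55 against the same list, with ranges that overlapped between all groups. Against the B cell list, *Ccr7* stood at 2.89 ± 0.23, 2.99 ± 0.09, 2.84 ± 0.15 and 2.25 ± 0.06, where the 4 mice with CTLA4-Ig/EPO were below all others, and *S1pr1* at -0.79 ± 0.19, -0.67 ± 0.26, -0.55 ± 0.33 and -1.54 ± 0.45. Against the mature dendritic cell list both genes kept most of their rise and fall, with *Ccr7* at 2.00 ± 0.32, 3.42 ± 0.11, 3.52 ± 0.14 and 2.45 ± 0.03 and *S1pr1* at -1.68 ± 0.29, -0.24 ± 0.40, 0.14 ± 0.37 and -1.34 ± 0.44. Against the CD11b+ myeloid list the differences between groups grew instead, with *Ccr7* at -0.81 ± 0.51, 2.62 ± 0.10, 2.61 ± 0.21 and 0.13 ± 0.31 and *S1pr1* at -4.49 ± 0.39, -1.04 ± 0.29, -0.77 ± 0.41 and -3.66 ± 0.20.

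Lists of other cells are given beside the whole table, in which 11.9% of genes were higher and 58.4% lower after BALB/c cells and 22.8% higher and 28.3% lower with EPO, as deposited. In CPM the table had 334 genes higher and 132 lower after BALB/c cells. Of 11 genes of mature dendritic cells, which carry CCR7, 5 were higher and 1 lower after BALB/c cells (median 0.40, and 9 or 11 higher and 0 lower in the other scalings), and 1 was higher and 6 lower with EPO (median -0.41). As deposited, its activation markers differed among themselves, since after BALB/c cells *Cd83* was higher (1.16), *Cd80* lower (-0.63), and *Cd86* (0.14) and *Cd40* (0.08) were not called. In CPM all 11 genes of this list, these markers among them, were called higher. Of 7 general dendritic cell genes, 4 were higher and 1 lower, then 1 higher and 3 lower. The 3 NK cell genes had 2 lower after BALB/c cells as deposited (1 higher and 0 lower in each other scaling) and 3 lower with EPO (1 in CPM). All 9 genes of the CD11b+ myeloid list were lower after BALB/c cells as deposited, and 4 were lower and 1 higher in CPM, while 6 were higher with EPO. All 8 neutrophil genes were lower after BALB/c cells in each scaling, and 4 of them were higher with EPO (6 in CPM). Of the 9 red pulp macrophage genes, *Vcam1* among them as in the adhesion list, 3 were higher and 1 lower after BALB/c cells as deposited (8 and 0 in CPM), and 9 were higher with EPO in each scaling. The results of the study describe the profiled cells as CD11b+CD11c-. *Itgax*, which encodes CD11c, was at 8.33 ± 0.34 in naive mice, 8.41 ± 0.22 after BALB/c cells, 8.48 ± 0.26 under CTLA4-Ig and 7.55 ± 0.16 when EPO was added. Its lowest recovered count was 151. The part of any of these cells in the values of *Ccr7* and *S1pr1* was not tested.

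The genes whose course over the 16 mice was most like that of *Ccr7* were found by the root mean square difference of log2 values, after subtraction of the mean of each gene. They were *H2-DMb2* (0.24), *H2-Ob* (0.24), *Cd69* (0.25), *Ccr6* (0.28) and *Cd83* (0.29), where the median over 733 genes was 1.15. *S1pr1* came at place 13, with 0.34. Nearest to *S1pr1* were *Irf4* (0.29), *Ccr7* (0.34), *Gpr183* (0.38), *H2-Eb1* (0.39) and *H2-Ob* (0.43), around a median of 1.26. *H2-DMb2* encodes a chain of H2-DM, which helps to load peptides onto MHC class II, *H2-Ob* a chain of H2-O, which restrains H2-DM, and *H2-Eb1* a chain of MHC class II itself. Measured by this distance, *Ccr7* was thus at place 2 of 733 for *S1pr1*, a distance that includes the differences between groups.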

How the data were processed

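The values are log2 expression as deposited by the authors, who imported raw nCounter counts into limma and normalized them. Each value equals the log2 of a whole count times a factor of its mouse, with 100% of values within 0.001, and the source of the factor is not named. Counts were recovered by dividing it out, and the lowest, 1, holds 0.843% of values and may stand for 0. All 734 genes were fitted with limma on 4 groups of 4 mice, with two-sided *P* values adjusted by Benjamini-Hochberg within each of 5 comparisons (called below 0.05). Correlations and differences between the genes used exact permutation tests. Mice given CTLA4-Ig and mice given CTLA4-Ig/EPO that bear the same number had correlated residuals in every pair (0.143 to 0.183), a pairing taken from the values and not from the labels. In the other pairs of groups these correlations ran from -0.129 to 0.293. Between naive and CTLA4-Ig/EPO mice they were all below 0 (-0.129 to -0.0159). Alternatives were median centring, quantile normalization, counts scaled to a common total (CPM), a filter, other moderation, a block and leaving mice out. The genes and lists were chosen with earlier results of these data known. The single-gene values of an item of the lists are not reported here, and it stays in the counts of its list. Gene names followed RefSeq (724 current, 9 synonyms, 1 unmatched). Software was limma 3.58.1 in R 4.3.3, and scipy 1.17.1, matplotlib 3.10.9, pandas 2.3.3 and numpy 2.4.6 in Python 3.11.15.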

Additional observations from a re-analysis of the deposited data

Results flagged for a closer look

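In 132 sets of 4 values (33 items in 4 groups), a mouse far from the other 3 was sought with Dixon's test, which by chance meets about 1 in 20 sets, and 6 sets met it. Of these, 0 concerned *Ccr7*, *S1pr1* or their difference. *Ccl19* was at 2.51 in BALB/c cells mouse 3 (others 3.25 to 3.33). *Itgal* was at 10.57 in BALB/c cells mouse 1 (others 10.70 to 10.72). *Vcam1* was at 11.46 in CTLA4-Ig mouse 4 (others 11.58 to 11.60), and *Selplg* at 11.81 in CTLA4-Ig mouse 2 (others 11.50 to 11.55). *Sele* was at 4.86 in naive mouse 2 (others 5.31 to 5.38). *Irf8* was at 0.89 in naive mouse 1 (others 9.64 to 9.87), at the lowest recovered count of 1.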

How the results depend on the processing

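With 4 mice per group, a single time and mixed cells, small changes can be missed. For *Ccr7* and *S1pr1*, the rise after BALB/c cells (1.60 to 2.83 and 1.65 to 2.85 log2), the absence of a call with CTLA4-Ig (-0.15 to -0.03 and 0.08 to 0.32), the fall with EPO (-1.72 to -1.42 and -2.13 to -1.79) and the fall against BALB/c cells (-1.82 to -1.50 and -1.95 to -1.60) kept call and direction in all 16 alternatives each. CTLA4-Ig/EPO minus naive did not. For *Ccr7* it was 0.66, 0.97 and 1.34 with median centring, quantile normalization and CPM, all called, and -0.00885 (without naive mouse 1) to 0.26 with a mouse left out. For *S1pr1* it was 1.22 in CPM, and -0.10 to 0.17 with a mouse left out, below 0 in 4 cases (-0.10, -0.07, -0.01 and -0.01). The genes called by limma between CTLA4-Ig and BALB/c cells numbered 0, 70 without adjustment, and 1 without BALB/c cells mouse 1 or 3. The correlation was -0.107 without naive mice and -0.211 to 0.334 with a mouse left out. *Ccr7* minus *S1pr1* between BALB/c cells and naive was 0.21 with quantile normalization and -0.17 to 0.10 with a mouse left out, above 0 in 4 cases (0.10, 0.05, 0.09 and 0.04). The cause was not tested.

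With the number of the mouse as a block (paired), EPO against CTLA4-Ig gave -1.52 for *Ccr7* (limma adjusted *P* value 1.56e-05) and -1.93 for *S1pr1* (2.26e-07), and no call of either gene changed. *Ccr7* minus *S1pr1* was then higher with EPO in 4 of 4 pairs (0.88, 0.21, 0.25 and 0.30, mean 0.41, exact *P* value 0.125, the smallest that 4 pairs allow). With the number also removed, a choice made after seeing the data, the correlation was 0.318.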
